A study of Homo sapiens with 4 samples.

Results

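The genes described here encode BTB-Kelch proteins, the related Kelch-domain proteins named KLHDC, and the cullins, measured by RNA-seq in RKO cells with and without knockdown of CHD7. They were taken as every gene whose symbol is KLHL, KBTBD, KLHDC or CUL followed by its number. This gave 58 genes of the 15357 in the tables, namely 34 KLHL genes, 8 KBTBD genes, 8 KLHDC genes and 8 cullins. The members were chosen by name, but the family was put forward because KBTBD8 was among the strongest rises after knockdown, so the knockdown contrast counts as used. The differences between the groups are therefore given for the members as a description, with fold changes and intervals and with no p-value.

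RKO is a human colon cancer cell line. Cells were infected with lentivirus to express a hairpin RNA stably, either a control (group vector, 2 samples) or a hairpin against CHD7 (CHD7 shRNA2, group shCHD7_2, 2 samples). CHD7 is an ATP-dependent chromatin remodeller, and the contrast asks how the transcriptome changed when it was depleted. Both groups carry a lentiviral insert and a hairpin, and since the knockdown group rests on a single hairpin sequence, loss of CHD7 and other effects of that hairpin cannot be told apart. Libraries were made with oligo-dT beads and so cover polyadenylated RNA. In bulk samples fewer cells of a kind and less RNA per cell cannot be told apart.

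BTB-Kelch proteins are substrate adaptors of a ubiquitin ligase. The BTB domain binds the scaffold CUL3, the Kelch propeller holds the substrate, and the RING protein RBX1 at the other end of the scaffold brings in the ubiquitin-loaded enzyme. Each cullin works with adaptors of its own. CUL1 uses F-box proteins, CUL2 uses receptors such as VHL and several KLHDC proteins, CUL4A and CUL4B use DDB1, and CUL5 uses SOCS-box proteins. KBTBD8 is known as the CUL3 adaptor that modifies the ribosome biogenesis factors NOLC1 and TCOF1 during specification of the neural crest, the tissue affected in CHARGE syndrome, which CHD7 mutations cause.

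Counts in the 4 samples summed to between 15734679 and 16068650. CHD7 had 85.4 and 91.0 CPM (counts scaled to library size by the TMM method) in vector and 55.5 and 50.1 in shCHD7_2, a log2 fold change of -0.74 (SE 0.088, adjusted p = 4.2e-06 by the edgeR quasi-likelihood fit). Among markers of colon epithelium, 8 of 11 were listed and 4 of them had a mean of at least 1 FPKM (fragments per kilobase of transcript, scaled to library size). KRT18, KRT8, EPCAM and CDX2 were present, whereas CDH1 was at 0.0025 FPKM and KRT20 at 0.01. Summed over the list, the level ranged from 75.3 to 81.2 FPKM in vector and from 81.6 to 90.3 in shCHD7_2. Most of this sum was KRT18, at 56.1 and 51.85 FPKM in vector and 58.47 and 65.62 in shCHD7_2. KRT8 was lower in shCHD7_2, at 13.35 and 12.29 against 11.68 and 11.72 FPKM. Of the 4 markers tested, 0 had an adjusted p under 0.05 from edgeR. Summed markers of fibroblasts, endothelium and skeletal muscle stayed at or below 0.22 FPKM in every sample, and of the leukocyte markers CD68 averaged 559 FPKM and LYZ 0.195.

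Among the members, KBTBD8 was 2.51-fold higher and CUL4B was at 0.625 of its vector level, while most of the others lay close to their vector level. Of the 58 members, 46 had enough counts to be fitted, and 12 did not. A gene was called where its fold change was at least 1.5 and its adjusted p from edgeR below 0.05. By that rule 1 of the 46 was called higher (2.17%, beside 1.51% of the 11955 genes tested) and 1 lower (2.17%, beside 1.37%). The member called higher was KBTBD8, whose rise was the reason for choosing the family, so that call was built into the choice. Without the fold threshold the counts were 1 higher (beside 4.94% of all genes) and 3 lower, which is 6.52% of the members beside 6.54% of all genes. The CPM of the groups did not overlap in 9 members that were higher, or 19.6% beside 26.4% of all genes, and in 11 that were lower, or 23.9% beside 27.3%. The median log2 fold change of the 46 was 0.00, as it was over all genes tested, with 23 above and 23 below 0. In all, 39 members (84.8%) stayed within 1.25-fold of vector, beside 84.4% of all genes.

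**Figure D1:**
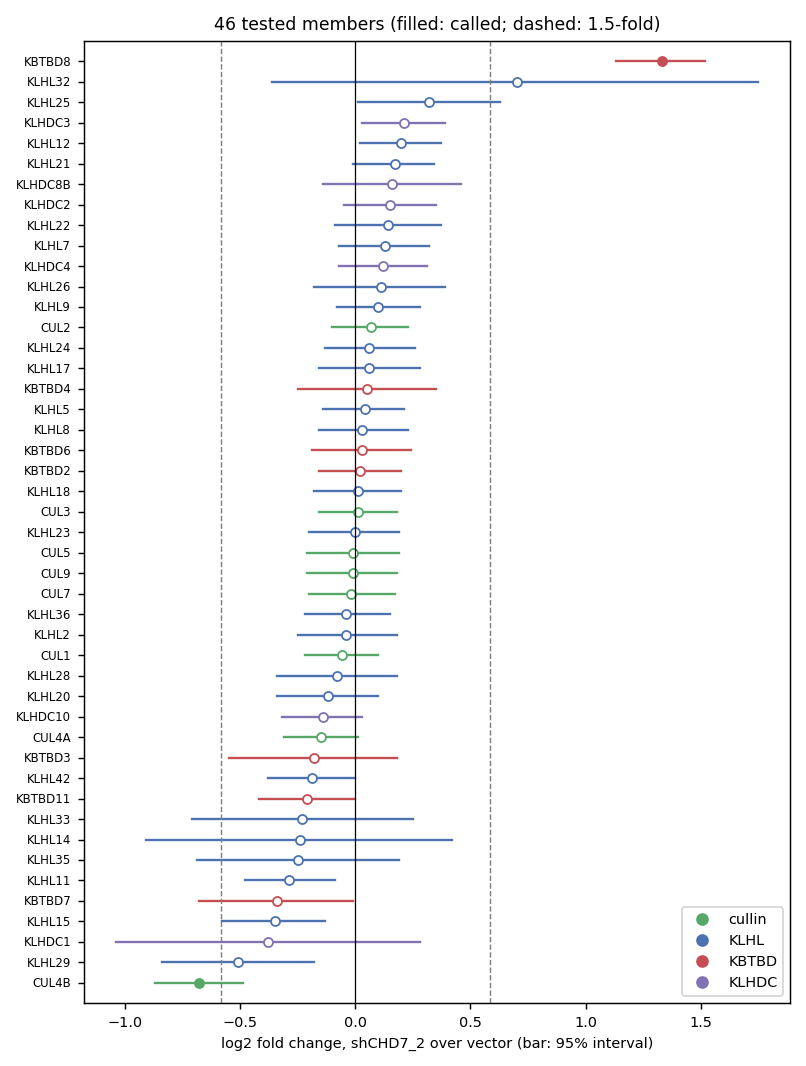
Log2 fold change of shCHD7_2 over vector for the 46 tested members, sorted and coloured by class, with 95% intervals from edgeR. Filled points are the called members, KBTBD8 at 1.33 and CUL4B at -0.68, and the dashed lines mark 1.5-fold.

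KBTBD8 lies at chr3:66998307-67011210 on the plus strand (GRCh38, GENCODE 29). It had 447 and 528 estimated counts in vector and 1290 and 1210 in shCHD7_2. In CPM this was 28.8 and 33.4 in vector and 80.5 and 75.8 in shCHD7_2, or 31.1 ± 3.29 against 78.1 ± 3.27 (SD, n = 2 each). Both knockdown samples were above both vector samples, and the gap between the groups was many times the difference within either. The log2 fold change was 1.33 (SE 0.095, 95% interval 1.13 to 1.52), a 2.51-fold rise.

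The length-corrected level of KBTBD8 rose from 6.42 and 7.33 FPKM to 18.35 and 17.39. That moved it from place 26 to place 13 among the 58 members. Its part of the summed FPKM of all 42 KLHL and KBTBD genes went from 2.56% and 2.84% to 6.40% and 6.27%. Measured against its scaffold, it stood at 0.238 and 0.268 of the FPKM of CUL3 in vector and at 0.610 and 0.654 in shCHD7_2. Both knockdown samples were above both vector samples on each of these measures.

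CUL3, the scaffold shared by the BTB-Kelch adaptors, had overlapping groups. Its CPM was 104.2 and 106.2 in vector and 110.9 and 101.1 in shCHD7_2. The log2 fold change was 0.01, with a 95% interval of -0.16 to 0.18. The reported substrates of KBTBD8 were also read. NOLC1 had a log2 fold change of 0.01 (SE 0.076, adjusted p = 0.972 from edgeR) and TCOF1 of 0.02 (SE 0.074, adjusted p = 0.889 from edgeR). These are transcript levels, and ubiquitin marks on the proteins were not measured.

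**Figure D2:**
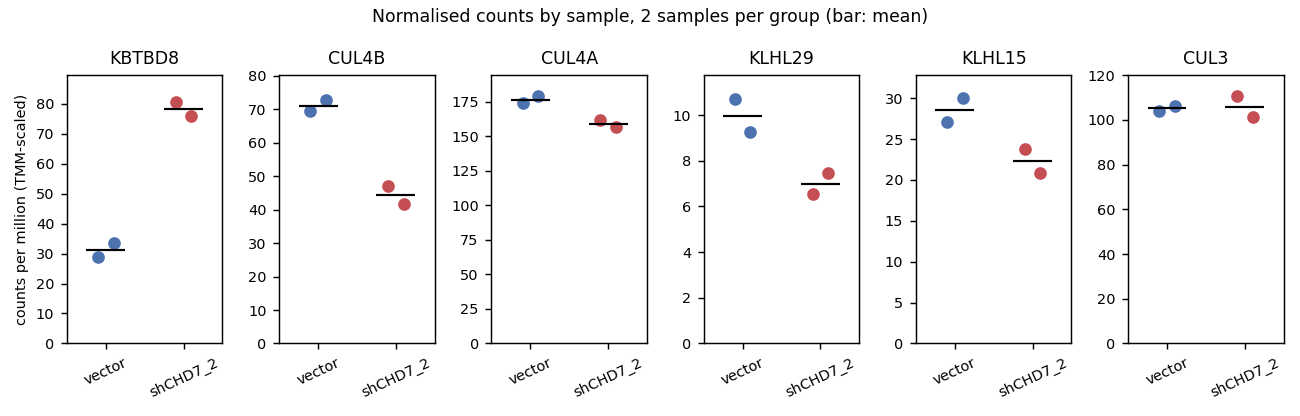
CPM (TMM-scaled, linear axes from 0) of 6 members in the 2 vector and 2 shCHD7_2 samples, where points are samples and bars are group means. KBTBD8 was higher and CUL4B lower in both knockdown samples, CUL4A, KLHL29 and KLHL15 were lower by less, and the CUL3 samples overlapped.

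CUL4B (chrX:120524609-120575794, minus strand) encodes a nuclear scaffold of the DDB1-based ligase and is mutated in an X-linked intellectual disability. It had 1077 and 1151 estimated counts in vector and 756 and 667 in shCHD7_2. The CPM was 69.4 and 72.9 against 47.1 and 41.8, or 71.1 ± 2.5 against 44.5 ± 3.78 (SD, n = 2 each). Every knockdown sample was below every vector sample. The log2 fold change was -0.68 (SE 0.090, 95% interval -0.87 to -0.49), which is 0.625 of the vector level, a little past the 1.5-fold threshold of the call rule.

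Its paralog CUL4A (chr13:113208193-113267108, plus strand) shares 82.9% of its aligned residues with CUL4B, but the longest run of identical coding bases is 23. The CUL4A counts were not whole in vector replicate 2 (2831.22) and shCHD7_2 replicate 2 (2499.09), while those of CUL4B were whole. Which other gene those CUL4A reads were divided with was not examined. CUL4A had 173.9 and 179.3 CPM in vector and 161.8 and 156.6 in shCHD7_2. It was lower in both knockdown samples too, with a log2 fold change of -0.15 and a 95% interval of -0.31 to 0.01. In FPKM, CUL4B made up 23.3% and 24.1% of the sum of the pair in vector and 17.9% and 16.1% in shCHD7_2. The difference between the fold changes of the paralogs was not tested. Their common adaptor DDB1 had a log2 fold change of -0.05 (SE 0.072, adjusted p = 0.725 from edgeR).

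In the other cullins the groups overlapped. CUL1, the scaffold of the F-box ligases, had 187.1 and 203.4 CPM in vector and 193.9 and 181.6 in shCHD7_2, a log2 fold change of -0.06 (95% interval -0.22 to 0.10). CUL2, the scaffold used by VHL, had 113.6 and 122.3 against 126.9 and 120.3 CPM, a log2 fold change of 0.07 (-0.10 to 0.23). CUL5, which carries the SOCS-box receptors, had 67.4 and 75.6 against 78.0 and 63.9 CPM, a log2 fold change of -0.01 (-0.21 to 0.19). In CUL1, CUL2 and CUL5 alike, vector replicate 2 was above replicate 1 and shCHD7_2 replicate 1 was above replicate 2. The order across the groups differed between these genes. CUL7 and CUL9 are atypical cullins that work in larger assemblies. CUL7 had 46.1 and 44.5 CPM in vector and 44.3 and 45.0 in shCHD7_2, a log2 fold change of -0.02 (-0.20 to 0.17). CUL9 had 33.9 and 34.6 against 34.4 and 33.5 CPM, a log2 fold change of -0.01 (-0.21 to 0.18). Across these 5 genes and CUL3 the intervals reached no further than -0.22 and 0.23.

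On the FPKM scale, which can be compared between genes, the cullins came in the order CUL1, CUL4A, CUL2, CUL3, CUL4B, CUL5, CUL7 and CUL9. Their means over the 4 samples were 62.7, 47.3, 29.7, 27.7, 12.3, 11.9, 9.15 and 4.89 FPKM. The ranges over samples overlapped between CUL2 and CUL3 and between CUL4B and CUL5, and all other neighbours in this order were apart. CUL4B was above CUL5 in vector, with means of 15 against 11.7 FPKM. In shCHD7_2 it was below CUL5, with means of 9.56 against 12.1 FPKM. Summed over the 8 cullins, the level was 202.8 and 212.0 FPKM in vector and 211.8 and 195.9 in shCHD7_2.

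Just outside the call rule lay KLHL29 and KLHL15, whose fold change fell short of 1.5 although the adjusted p was under 0.05. KLHL29 (chr2:23385217-23708611, plus strand) had 166 and 146 estimated counts in vector and 105 and 119 in shCHD7_2, or 10.7 and 9.25 against 6.55 and 7.46 CPM. Its log2 fold change was -0.51 (SE 0.16, 95% interval -0.84 to -0.18). It met the call rule at -0.61 when shCHD7_2 replicate 2 was left out. KLHL15 (chrX:23983720-24027186, minus strand), the adaptor that targets the phosphatase subunit PPP2R5B, had 420 and 474 counts in vector and 381 and 333 in shCHD7_2. Its CPM was 27.1 and 30.0 against 23.8 and 20.9, a log2 fold change of -0.35 (SE 0.11, 95% interval -0.58 to -0.13). In both genes all knockdown samples were below all vector samples. PPP2R5B itself had a log2 fold change of 0.15 (SE 0.10, adjusted p = 0.408 from edgeR).

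The 3′ UTRs of the members were read on the transcript strand for the 7-base word AGCTATT and for words that overlap it by several bases, GAAGCTA on its 5′ side and GCTATTA on its 3′ side. These words were picked earlier on these same samples as the most common in genes lower after knockdown, so their presence supports nothing about the members. They were found in 15 of the 46 tested members (32.6%), beside 2581 of 11709 tested genes with a 3′ UTR (22%). Of the 15, 9 had a log2 fold change below 0. Those above 0 included KLHDC8B at 0.161, KLHDC2 at 0.149, KLHL7 at 0.128 and KLHDC4 at 0.121. The sites of the lower members CUL4B and KLHL15 and of the scaffold CUL3 are shown 5′ to 3′ on the gene's strand with 10 bases on each side and the word in capitals.

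CUL4B, chrX:120526441-120526467, minus strand: gatccctgtgGCTATTAaaaagggggg
CUL4B, chrX:120526230-120526256, minus strand: gaattgtcatAGCTATTgatattttac
CUL4B, chrX:120525016-120525042, minus strand: aagcaaatgcAGCTATTttgtttaccc
KLHL15, chrX:23986624-23986651, minus strand: atttactgaaAGCTATTAgcatgaagga
CUL3, chr2:224473092-224473118, minus strand: ttggatatttAGCTATTgtcctccaaa

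CUL4B held 3 sites in a 3′ UTR of 2152 bases. Of tested genes with a 3′ UTR within 1.25 times that length, 25.8% held at least 1 word, and the share with 3 sites was not counted. The KLHL15 site spans both AGCTATT and GCTATTA, in a 3′ UTR of 4201 bases, a length class in which 48.2% held a word. CUL3 held 1 site in 4095 bases (47.1% of its length class), and the samples of its groups overlapped. KBTBD8 held none in 2825 bases (34.4%), and none of the words lay in the 3′ UTRs of CUL4A, KLHL29 and KLHL11. The 15 members with a word had a median log2 fold change of -0.08, and the 31 with none had 0.02. Over all tested genes the medians were also -0.08 with a word and 0.02 with none. Because the words were picked on these same samples from genes lower after knockdown, a lower median with a word was built into that choice. These medians therefore support nothing about the members.

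The remaining members with the widest differences were read from fewer counts or moved less. KLHL32 had a log2 fold change of 0.70, next below KBTBD8, from 3.6 and 10.59 estimated counts in vector and 10.15 and 14.88 in shCHD7_2, so the groups overlapped and the 95% interval ran from -0.36 to 1.75. KLHDC1 had 22 and 29 against 19 and 21 counts, a log2 fold change of -0.38 with an interval of -1.04 to 0.28. KLHL35 had 71 and 71 against 50 and 72 counts, a log2 fold change of -0.25 with an interval of -0.69 to 0.19. The KLHL35 difference rested on shCHD7_2 replicate 1, and was -0.01 without it. The intervals of all 3 genes included 0, so no difference was detectable at these counts.

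KLHL25, an adaptor for the translation inhibitor EIF4EBP1 and for ATP citrate lyase, had 9.15 and 10.5 CPM in vector and 11.2 and 13.3 in shCHD7_2. Its log2 fold change was 0.32 (95% interval 0.01 to 0.63), and the samples of the groups did not overlap. KLHL11 had 37.4 and 37.9 CPM in vector and 31.7 and 30.0 in shCHD7_2, a log2 fold change of -0.29 (95% interval -0.48 to -0.09), also without overlap. Neither had an adjusted p under 0.05.

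KBTBD6 and KBTBD7, which work together as GABARAP-binding adaptors for the Rac activator TIAM1, lie close together on chromosome 13 and share 89.8% of their residues and a run of 301 identical coding bases. Their estimated counts were not whole numbers, while the sum of the pair was whole in each sample, at 498 and 544 in vector and 529 and 491 in shCHD7_2. Reads were therefore divided between them, and the split is uncertain. KBTBD7 had 7.92 and 9.69 CPM in vector and 6.98 and 6.89 in shCHD7_2, a log2 fold change of -0.34 (95% interval -0.68 to -0.01). KBTBD6 had 24.2 and 24.8 against 26.0 and 23.9 CPM, a log2 fold change of 0.03 (95% interval -0.19 to 0.24). The sum of the pair overlapped between the groups.

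In the pairs KLHL9 with KLHL13 and KLHL2 with KLHL3, almost all counts went to a single member. KLHL9 and KLHL13, both adaptors for the mitotic kinase AURKB, share 92.8% of their residues. KLHL9 had 1537 and 1680 counts in vector and 1878 and 1637 in shCHD7_2 (log2 fold change 0.10, 95% interval -0.08 to 0.28), whereas KLHL13 had a total of 1 count. KLHL2 and KLHL3, adaptors for the WNK kinases that control salt transport, share 77.3%. KLHL2 had 364 and 402 against 388 and 374 counts (log2 fold change -0.04, 95% interval -0.25 to 0.18), and KLHL3 had 2 and 1 against 1 and 0. KLHL23 shares its exons with the read-through gene PHOSPHO2-KLHL23, which was given 0 and 0 counts in vector and 24.98 and 15.91 in shCHD7_2. KLHL23 itself had 892 and 998 against 1039.99 and 885.29 counts, so its log2 fold change of 0.00 is uncertain by that division.

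**Figure D3:**
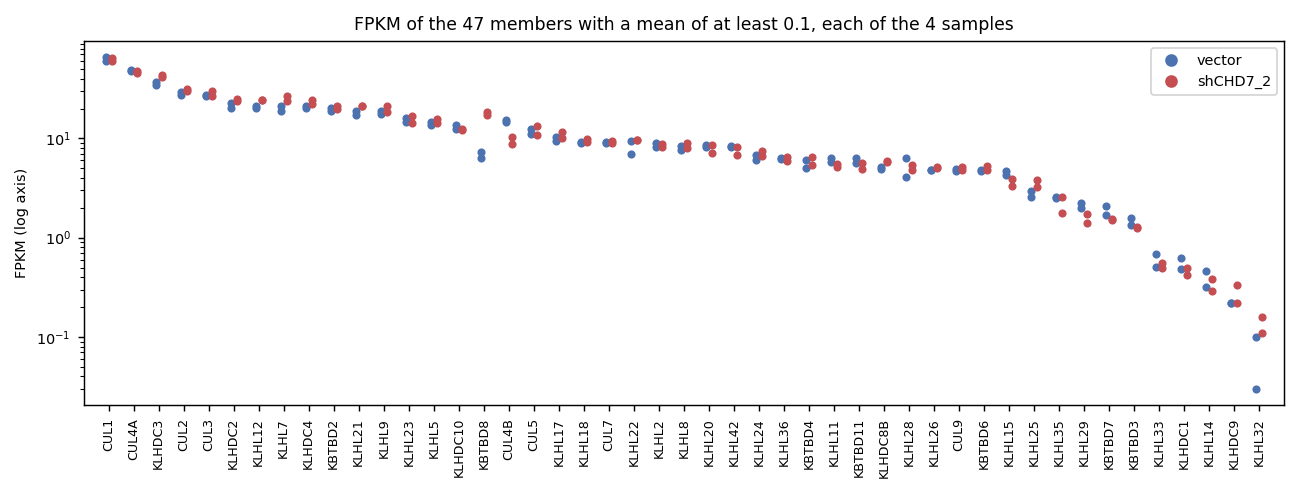
FPKM (log axis) in each of the 4 samples for the 47 members with a mean of at least 0.1 FPKM, ordered by mean. CUL1 and CUL4A lead, KBTBD8 is the member whose groups lie farthest apart upwards, and CUL4B is apart downwards.

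The levels of the members spanned from no counts to over 60 FPKM. A mean of at least 10 FPKM was reached by 19 members, 23 lay between 1 and 10, 5 between 0.1 and 1, and 11 below 0.1. The 11 lowest were KBTBD12, KLHDC7B, KLHL3, KLHL6, KLHL10, KLHL13, KLHL30, KLHL31, KLHL38, KLHL40 and KLHL41. Several of these are known from other tissues, such as KLHL31, KLHL40 and KLHL41 from striated muscle, KLHL10 from testis and KLHL6 from lymphocytes. With KLHDC9 they made up the 12 members not tested, none of which had more than 6.71 counts in a sample.

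Outside the cullins the most abundant members were KLHDC3, KLHDC2, KLHL7 and KLHL12. KLHDC3 and KLHDC2 are CUL2 receptors that recognise the C-terminal ends of proteins. KLHDC3 had 37.08 and 34.12 FPKM in vector and 41.22 and 43.53 in shCHD7_2, and its log2 fold change on counts was 0.21 (95% interval 0.03 to 0.39). KLHDC2 had 20.24 and 22.96 against 24.07 and 25.19 FPKM, a log2 fold change on counts of 0.15 (-0.05 to 0.35). Both were higher in all knockdown samples, by less than 1.25-fold. KLHL12, which directs ubiquitin to the COPII coat protein SEC31A, had 21.15 and 20.28 against 24.29 and 24.60 FPKM, a log2 fold change on counts of 0.20 (0.02 to 0.37). KLHL7, mutated in an inherited retinal degeneration, had 18.79 and 21.05 against 23.67 and 26.85 FPKM. Its log2 fold change was 0.13 on counts (-0.07 to 0.32) and reached 0.34 when fitted on FPKM. In the order by level, KLHDC2, KLHL7 and KLHL12 overlapped with each other and KLHDC2 stood apart from CUL3 above it, while KLHDC3 stood apart from CUL4A above and CUL2 below.

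By class, the 25 tested KLHL genes had a median log2 fold change of 0.01 and a range of -0.51 to 0.70. The 7 KBTBD genes had a median of 0.02 and a range of -0.34 to 1.33, and the 8 cullins a median of -0.02 and a range of -0.68 to 0.07. The 6 KLHDC genes had a median of 0.14, with 4 above and 2 below 0, and in all 6 the groups did not overlap, beside 20 of the 46 tested members (43.5%) and 53.7% of all genes tested. Summed over the 42 KLHL and KBTBD genes, the adaptor level was 250.8 and 258.3 FPKM in vector and 286.7 and 277.4 in shCHD7_2. Without KBTBD8 the sum was 244.4 and 251.0 against 268.3 and 260.0 FPKM, still apart. For the KBTBD genes alone it was 44.6 and 47.5 against 58.8 and 56.2 FPKM, and without KBTBD8 38.2 and 40.2 against 40.4 and 38.8, which overlapped. On FPKM all genes lay slightly higher in shCHD7_2. Their median log2 fold change was 0.038 with limma on log2(FPKM + 1) at a mean of at least 1 FPKM, beside 0.001 on TMM-scaled counts. How much of the gaps between these sums is this offset was not tested.

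Relatives and partners of the members, and genes listed as neural crest regulators, made up 7 sets. These held 141 symbols, some of them older names of the same gene, and 121 were tested. None was called with the fold threshold, by edgeR or by DESeq2. By edgeR 9 had an adjusted p under 0.05, 5 higher and 4 lower, which is 7.44% beside 11.5% of all genes tested. An unadjusted p under 0.05 was found for 26, or 21.5% beside 25.4% of all genes. The median log2 fold change was 0.02. Of the 5 genes listed as BTB-Kelch under other names, ENC1 fell by 0.44 on the log2 scale (SE 0.096, adjusted p = 0.0037 from edgeR). KEAP1, the sensor of oxidative stress, had a log2 fold change of 0.15 (SE 0.090, adjusted p = 0.313 from edgeR), and its substrate NFE2L2 of -0.07 (SE 0.084, adjusted p = 0.634 from edgeR).

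The common machinery of the ligases was also listed. In the core and neddylation list 0 of 23 tested genes passed the adjusted p in either direction, 6 had an unadjusted p under 0.05, and all 23 stayed within 1.25-fold. The RING protein RBX1 had a log2 fold change of 0.07 (adjusted p = 0.681 from edgeR), the modifier NEDD8 of -0.01 (adjusted p = 0.978 from edgeR) and the exchange factor CAND1 of 0.02 (adjusted p = 0.891 from edgeR). Of the 10 COP9 signalosome genes, which take NEDD8 off the cullins, the catalytic subunit COPS5 fell by 0.34 on the log2 scale (SE 0.086, adjusted p = 0.0124 from edgeR). Of 15 adaptors of other cullins, SOCS6 fell by 0.32 on the log2 scale (SE 0.096, adjusted p = 0.0336 from edgeR).

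Among the CUL3 adaptors that have a BTB domain and no Kelch repeats, 4 of 27 rose (14.8%, beside 4.94% of all genes) and 1 fell (3.7%, beside 6.54%) at an adjusted p under 0.05, all by less than 1.5-fold. The list as a whole was not tested against other genes. KCTD5, which acts on G protein beta-gamma subunits, went from 77.4 and 74.1 to 112.6 and 106.1 CPM, a log2 fold change of 0.53 (SE 0.083, adjusted p = 0.00014 from edgeR). KCTD3, TNFAIP1 and KCTD2 rose by 0.33, 0.32 and 0.30 on the log2 scale. RHOBTB3 went from 86.0 and 92.0 to 67.4 and 59.7 CPM and fell by 0.49 on the log2 scale (SE 0.088, adjusted p = 0.0007 from edgeR). Of 27 tested substrates and partners of members, or of KEAP1 and KCTD proteins, 1 rose (3.7%, beside 4.94% of all genes) and 0 fell (beside 6.54%) at an adjusted p under 0.05. The gene that rose was WNK2, by 0.25 on the log2 scale (SE 0.082, adjusted p = 0.0482 from edgeR). Of 27 genes listed as neural crest regulators, 16 were in the data and 14 tested. The tested ones include POLR1A, POLR1B, POLR1C and POLR1D, which encode subunits of RNA polymerase I. SOX9 was near the floor, at 2.32 and 1.39 CPM in vector and 1.25 and 1.07 in shCHD7_2. None passed the adjusted p from edgeR, with 3 at an unadjusted p under 0.05 and a median of 0.12.

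**Figure D4:**
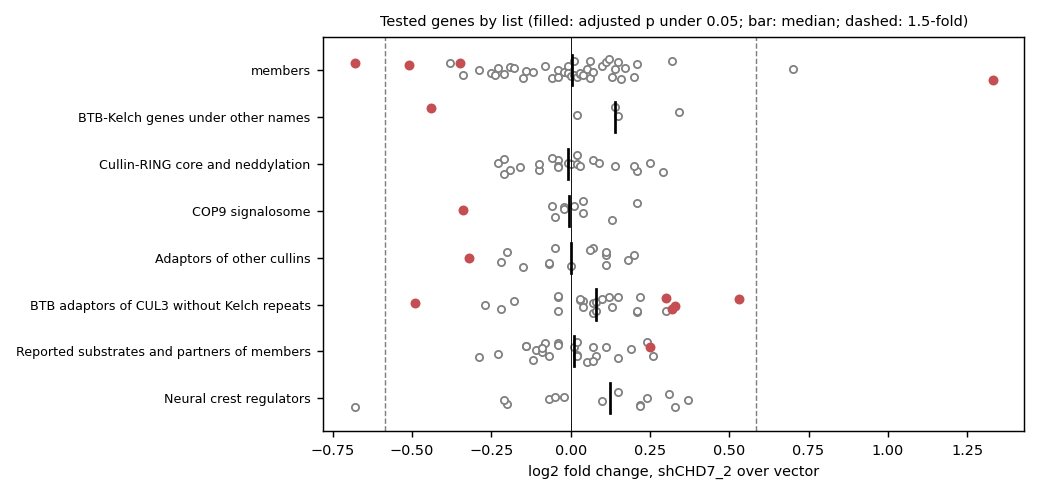
Log2 fold change of shCHD7_2 over vector for the 46 tested members and for the tested genes of the 7 lists, with bars at the medians and dashed lines at 1.5-fold. Filled points have an adjusted p under 0.05 from edgeR, and no filled point outside the members lies past the dashed lines.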

How the data were processed

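RNA-seq was measured in 2 vector and 2 shCHD7_2 samples. The authors deposited estimated counts per gene, not normalised, of which 13.6% to 14.7% per sample were not whole, as when reads are divided between similar genes. The authors also deposited FPKM values, corrected for gene length and depth. The submitters' processing notes name Bowtie2, RSEM, DESeq2 and hg38, and their roles and versions are not given in the sources used here. Among the members, 12 had a count that was not whole, including CUL4A and KLHDC2. Dividing reads can shift counts between paralogs and read-through genes.

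The estimated counts were rounded, filtered with filterByExpr, scaled by TMM and tested with the quasi-likelihood test of edgeR 4.0.16 in R 4.3.3, with Benjamini-Hochberg adjustment over 11955 genes. Calls needed an adjusted p under 0.05 and a fold of at least 1.5. The biological coefficient of variation was 0.0579. The labels do not say that samples came from separate cultures, so p-values measure only the spread between these samples. With 2 against 2, a permutation cannot give a two-sided p below 0.333. Replicates differed by more than sampling noise (chi-square per gene 3.86 in vector and 5.86 in shCHD7_2). Totals of 15734679 to 16068650 counts per sample leave a member under 10 counts with the widest error.

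The members and lists were chosen with earlier results of these data known. Members named are those called, the cullins, the 10 with the largest differences, the 8 with the highest FPKM, those nearest the call threshold and the 4 most alike paralog pairs. KLHL23, DDB1 and PPP2R5B fall outside that rule, as do the listed genes under the adjusted p, and were picked with their values in view. Locations and 3′ UTRs are from GENCODE 29 on GRCh38, matched by symbol for all 58 members. Alternatives were other size factors, DESeq2 1.42.0, other filters, a replicate block, limma 3.58.1 on log2(FPKM + 1) and log2(FPKM + 0.1), and leaving out each sample.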

Additional observations from a re-analysis of the deposited data

How the results depend on the processing

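KBTBD8 kept its direction in all 14 alternatives, with a log2 fold change between 1.22 and 1.44, and CUL4B in all 14, between -0.77 and -0.59. Both were called in 13 of them. The exception was limma on log2(FPKM + 1) without a filter on low values, where 0 members and 23 genes were called. Without the fold threshold 4 members, 9 listed pathway genes and 1373 genes passed, against 2, 0 and 344. DESeq2 called 221 genes, no filter on low counts 141, and limma on log2(FPKM + 1) with a mean of at least 1 FPKM 172. The share of called genes that were higher, 52.3%, was 42.1% with DESeq2, 37.6% without the low-count filter and 26.1% with limma without a filter, and 60.6% with library totals in edgeR. Leaving out each sample gave 2 to 3 members, 0 to 0 pathway genes and 311 to 395 genes, and a log2 fold change of CHD7 of -0.82 to -0.67. The third member was KLHL29, without shCHD7_2 replicate 2. CHD7 fell short of the call rule with limma on FPKM, beside -0.74 in the main fit on counts. It was at -0.51 with a pseudocount of 1, with and without the filter, and at -0.58 with 0.1. The causes of these changes were not tested.

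Both groups carry replicate numbers 1 and 2. With each sample taken relative to its group, those of equal number had a correlation of -0.198 over 11955 genes. Equal numbers therefore did not mark samples that moved together. Samples of unequal number leaned the same way instead, and the cause was not tested. With the replicate block, 2 members, 0 pathway genes and 329 genes were called, and the log2 fold change of CHD7 was -0.74. A crossed pairing, added after seeing the data, called 2 members and 423 genes, beside 344 genes with no pairing. Each fit without a sample assumes that the lone sample varies like the other group. KLHL32 and KLHDC1, which had the fewest counts among the members named with a fold change, ran from 0.16 to 1.57 and from -0.55 to -0.18 when each sample was left out.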
